A study of Mus musculus with 4 samples.

Results

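The genes described here are 30 genes of cholesterol synthesis and of the SREBP pathway, out of 18392 genes compared on the same arrays. They were chosen by name, as non-control probes whose gene name is a sterol synthesis enzyme, an SREBP protein or one of its regulators, a sterol carrier or an SREBP-driven gene of fatty acid synthesis. Each gene was read from its brightest probe among those well above background on both arrays of at least 1 genotype. This filter is part of how the 30 genes were chosen, so that all 30 passed it is no result. The probe used was well above background on all 4 arrays in each of them. Expression was measured on one-colour Agilent arrays in primary tubular cells of the kidney from SerpinB2-/- mice (n = 2) and from wild type mice (n = 2). Serpinb2 encodes plasminogen activator inhibitor-2, and the series title places the study in kidney injury and renal ageing. The labels give the same background (B6.J), sex (male) and age (8 weeks) for both genotypes, and every culture had received 100 ng/ml of PMA, which is a phorbol ester and an activator of protein kinase C, in a commercial renal growth medium. No untreated cells were in the series, and the labels do not describe how the SerpinB2-/- allele was made. They also do not say whether the 2 samples of a genotype came from separate animals or cultures, so the p-values measure only the spread between these samples.

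Cholesterol is built from acetyl-CoA through mevalonate, farnesyl diphosphate, squalene and lanosterol. The enzymes of this route are targets of SREBP-2, a transcription factor held in the endoplasmic reticulum membrane by Scap and the Insig proteins when sterols are plentiful, and cut and released to the nucleus when sterols are low. SREBP-1, from Srebf1, mainly drives fatty acid synthesis and desaturation. Tubular epithelium makes and takes up cholesterol for its membranes.

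Serpinb2, which checks the labels, had a scaled signal of 5.47 and 7.39 in the SerpinB2-/- samples, against 3207 and 3276 in wild type (probe at chr1:109422046-109422105, mm9). Scaled signal is the scanner intensity after each array was set to the same 75th percentile, in intensity units, and it is compared only within a probe. On both SerpinB2-/- arrays this probe was not well above background, and the signal was at least 139.7-fold lower there. The bound sets the wild type mean against the dimmest signal that still counted as well above background on each SerpinB2-/- array. Well above background were 23409 to 24476 probes on an array, and 0 spots were saturated. The median gene differed by 0.08 on the log2 scale between the 2 arrays of a genotype, and by 0.14 to 0.16 between arrays of different genotypes. All arrays lay on 1 slide with SerpinB2-/- in the last positions and wild type in the first, so position and genotype cannot be told apart.

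Across the 30 genes, 3 sterol enzymes fell in SerpinB2-/- cells, 0 genes rose and 27 did not pass the test. The 3 that fell were Tm7sf2, Lss and Fdft1. Calls are limma adjusted p-values below 0.05 in a fit of all 18392 genes, of which 2884 (15.7%) were called, 1105 higher (6.01%) and 1779 lower (9.67%). The 3 of 30 lower is thus close to the share of all genes called lower, and the number of calls does not set these genes apart. At an unadjusted p below 0.05 there were 6 of the 30 genes, against 34.2% of all genes. The median log2 change, given throughout as SerpinB2-/- minus wild type, was -0.02 over the 30 genes and 0.01 over all genes, and its median size without sign was 0.0961 over the 30 genes and 0.133 over all genes. The sign of the median over the 30 genes depended on which samples were used, at 0.0341 with SerpinB2-/- replicate 1 left out, -0.0734 with SerpinB2-/- replicate 2 left out, 0.0416 with wild type replicate 1 left out and -0.0873 with wild type replicate 2 left out. The genotypes did not overlap in 13 of the 30 genes, against 64.3% of all genes. In 7 of them both SerpinB2-/- samples lay above both wild type samples and in 6 both lay below, against 32.5% and 31.9% of all genes.

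**Figure D1:**
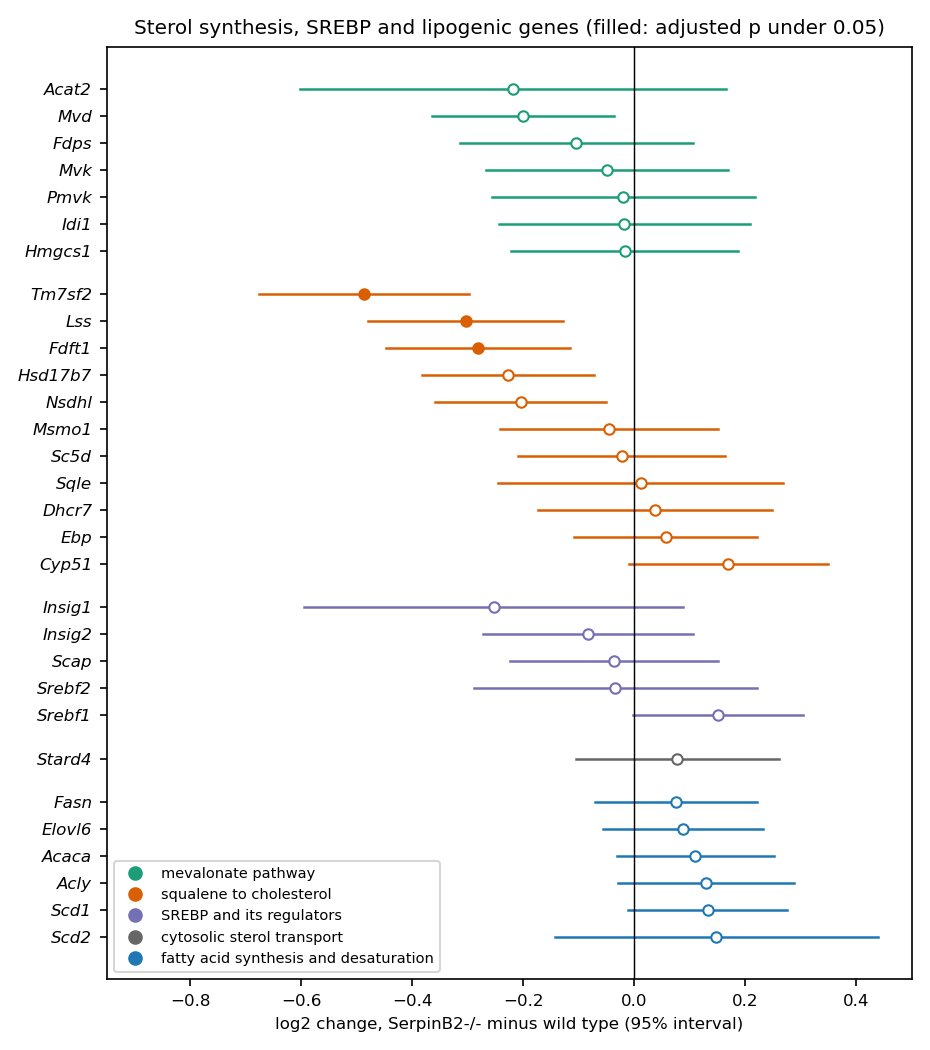
Log2 change (SerpinB2-/- minus wild type, n = 2 per genotype, horizontal axis) of the 30 genes grouped by role, with 95% intervals of the limma fit as lines and filled points for adjusted p below 0.05. The 3 filled points are all in the squalene-to-cholesterol branch, in which Fdft1 is counted, and lie below 0. The 7 mevalonate pathway genes lie below 0 with none filled, and the 6 fatty acid genes lie above 0 with none filled.

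The upper part of the route, from acetyl-CoA to farnesyl diphosphate, was measured by 7 genes, and none passed the test. Their log2 changes ran from -0.22 for Acat2 to -0.02, with a median of -0.05. The median was 0.01 when SerpinB2-/- replicate 1 was left out and 0.02 when wild type replicate 1 was left out, with 4 of the 7 above 0 in each case. Hmgcs1, the cytosolic synthase that makes HMG-CoA, had a scaled signal of 22468 and 25078 in SerpinB2-/- cells, against 24683 and 23383 in wild type. The genotypes overlapped, and the log2 change was -0.02 ± 0.08 (SE, n = 2 per genotype, adjusted p = 0.895, 95% interval -0.22 to 0.19). Mvk and Pmvk, the kinases that phosphorylate mevalonate in turn, had log2 differences of -0.05 and -0.02 and also overlapped. Idi1, which interconverts the isoprene units, and Fdps, which joins them into farnesyl diphosphate, gave log2 changes of -0.02 and -0.10. Acat2, the cytosolic thiolase at the head of the route, had 79.8 and 95.8 in SerpinB2-/- cells, against 114.3 and 90.5 in wild type, a spread within each genotype wider than the difference between them (log2 change -0.22 ± 0.15, SE). Mvd, the decarboxylase that makes the first isoprene unit, was the only one of the 7 whose genotypes did not overlap, at 731 and 778 in SerpinB2-/- cells, against 879 and 855 in wild type. Its log2 change of -0.20 ± 0.06 (SE) did not pass after adjustment (adjusted p = 0.0983).

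From squalene synthase (Fdft1) to cholesterol 11 genes were measured, of which 3 fell (27.3%, against 9.67% of all genes lower) and 8 did not pass. The branch as a set was not tested. Tm7sf2 encodes a sterol reductase of the endoplasmic reticulum that acts on the product of Cyp51. Its scaled signal was 2522 and 2787 in SerpinB2-/- cells, against 3777 and 3658 in wild type (probe at chr19:6062882-6062941, minus strand, mm9). Both SerpinB2-/- samples were below both wild type samples, and the signal fell by 28.7% (log2 change -0.49 ± 0.07, SE, adjusted p = 0.0198). A second Tm7sf2 probe, 659 bases away, read 392 and 417 in SerpinB2-/- cells, against 597 and 593 in wild type. It gave a log2 change of -0.56 (adjusted p = 0.0110 in a fit of every probe), so both probes of this gene were lower by a similar amount. Without 1 array the log2 change of Tm7sf2 stayed between -0.56 and -0.42. The call held without SerpinB2-/- replicate 2 (adjusted p = 0.0308) and was lost without SerpinB2-/- replicate 1 (0.0559), wild type replicate 1 (0.0867) and wild type replicate 2 (0.0747).

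Lss encodes lanosterol synthase, which closes the sterol rings. Its scaled signal was 589 and 599 in SerpinB2-/- cells, against 765 and 703 in wild type (chr10:76015992-76016051, plus strand, mm9). The signal fell by 19.0%, a log2 change of -0.30 ± 0.07 (SE, adjusted p = 0.0467). Fdft1 encodes squalene synthase, the first enzyme committed to sterols. Its scaled signal was 2502 and 2653 in SerpinB2-/- cells, against 3200 and 3063 in wild type, and it fell by 17.7% (log2 change -0.28 ± 0.06, SE, adjusted p = 0.0491). The samples did not overlap for either gene. Both calls lay close to the threshold, and both were lost when any 1 of the 4 arrays was left out, with adjusted p of 0.0897 to 0.171 for Lss and 0.105 to 0.183 for Fdft1. A second, dim Fdft1 probe read 32.8 and 29.8 in SerpinB2-/- cells, against 36.0 and 33.7 in wild type, a log2 change of -0.16 that did not pass (adjusted p = 0.216).

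An oligonucleotide is shown for each of 2 genes that fell, as the files list it, in lower case and with no motif marked. For Tm7sf2 it is the second probe, which gave -0.56, at chr19:6063541-6063600, and the probe behind the -0.49 is not shown. For Fdft1 it is the bright probe behind the -0.28, whose 60 bases the files place across chr14:63765750-63769990, a span longer than the probe. Both are on the minus strand of mm9.
Tm7sf2: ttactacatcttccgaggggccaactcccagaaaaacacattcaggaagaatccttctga
Fdft1: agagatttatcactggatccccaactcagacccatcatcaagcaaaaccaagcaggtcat

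**Figure D2:**
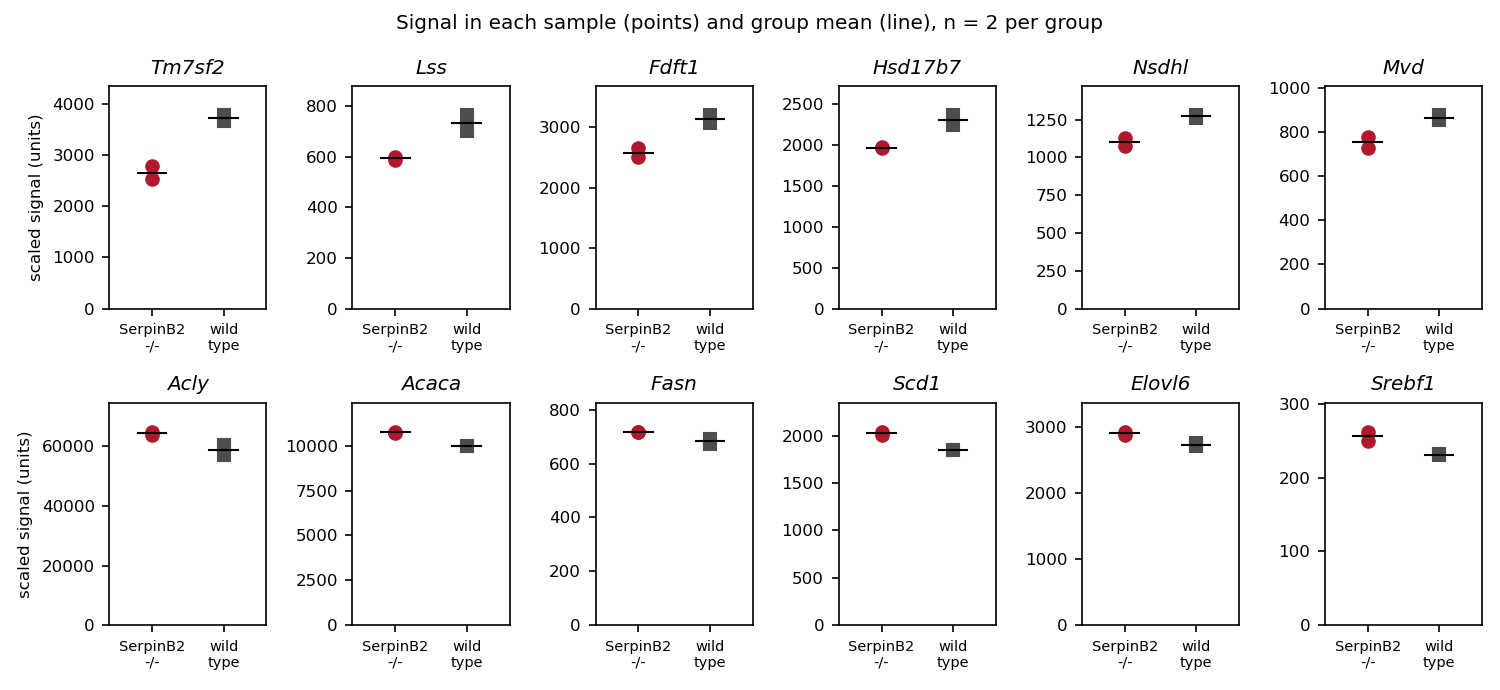
Scaled signal (intensity units, vertical axes start at 0) in each SerpinB2-/- sample (circles, left) and each wild type sample (squares, right) for 12 of the genes whose genotypes did not overlap, with the mean of each genotype as a line. Tm7sf2, Lss, Fdft1, Hsd17b7, Nsdhl and Mvd are lower in both SerpinB2-/- samples, and Acly, Acaca, Fasn, Scd1, Elovl6 and Srebf1 are higher by a smaller margin. Cyp51, the only other gene without overlap, is not plotted and was higher in both SerpinB2-/- samples (log2 change 0.17).

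Of the other 8 enzymes of the branch, 2 more had both SerpinB2-/- samples below both wild type samples without passing. In the whole branch 5 of 11 genes lay below in this way and 1 above, against 31.9% and 32.5% of all genes. Hsd17b7, the sterol ketone reductase, read 1974 and 1959 in SerpinB2-/- cells, against 2364 and 2243 in wild type (log2 change -0.23 ± 0.06, SE, adjusted p = 0.0677). It passed as lower with the authors' table (adjusted p = 0.0488), with the 75th percentile of detected probes (0.0488) and with a trended eBayes fit (0.0380). A second Hsd17b7 probe gave -0.31 (adjusted p = 0.0355 in the fit of every probe) and another, dim probe gave 0.11, so the probes of this gene disagreed. Nsdhl, the decarboxylase that works with it, read 1130 and 1075 in SerpinB2-/- cells, against 1280 and 1261 in wild type (log2 change -0.20 ± 0.06, SE, adjusted p = 0.0839). A second, dimmer Nsdhl probe overlapped, at 219 and 232 in SerpinB2-/- cells, against 260 and 213 in wild type. It gave -0.06 (adjusted p = 0.729 in the fit of every probe). Cyp51, the lanosterol demethylase whose product Tm7sf2 reduces, lay on the other side, at 935 and 998 in SerpinB2-/- cells, against 888 and 832 in wild type (log2 change 0.17 ± 0.07, SE, adjusted p = 0.164). Sqle, squalene epoxidase and a rate-limiting step, overlapped fully, at 11784 and 12789 in SerpinB2-/- cells, against 13180 and 11254 in wild type. Its log2 change was 0.01 ± 0.10 (SE, adjusted p = 0.943, 95% interval -0.24 to 0.27). Msmo1, Ebp, Sc5d and Dhcr7, which remove methyl groups and place the double bonds, overlapped as well, with log2 changes between -0.05 and 0.06.

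The reductase step of Tm7sf2 is shared with a second protein, the lamin B receptor Lbr, whose membrane part carries the same sterol reductase activity. Lbr is outside the 30 genes and was looked up after the Tm7sf2 values had been seen. It lies on the chromosome of Serpinb2, and a part of flanking sequence in its values was not tested. Its scaled signal was 2699 and 2682 in SerpinB2-/- cells, against 1917 and 2044 in wild type (chr1:183745893-183745952, mm9). The genotypes did not overlap, and Lbr rose by 35.9% (log2 change 0.44 ± 0.06, SE, adjusted p = 0.0179). A second Lbr probe read 172 and 174 in SerpinB2-/- cells, against 112.1 and 118.0 in wild type, a log2 change of 0.59 (adjusted p = 0.00958 in the fit of every probe). The Lbr call was lost when any 1 array was left out (adjusted p of 0.0570 to 0.0786). The gene thus moved opposite to Tm7sf2 in the same samples, and whether sterol reduction differed was not tested.

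The SREBP proteins and the proteins that hold them back were measured by 5 genes, none of which passed. Srebf2, the precursor of SREBP-2, read 1273 and 1365 in SerpinB2-/- cells, against 1464 and 1245 in wild type. The genotypes overlapped (log2 change -0.03 ± 0.10, SE, adjusted p = 0.833, 95% interval -0.29 to 0.22). A second, dimmer Srebf2 probe read 174 and 162 in SerpinB2-/- cells, against 204 and 197 in wild type, without overlap. It gave -0.25 ± 0.07 (SE) and did not pass (adjusted p = 0.0646 in the fit of every probe), so the 2 Srebf2 probes differed. Srebf1 read 250 and 263 in SerpinB2-/- cells, against 231 and 232 in wild type (log2 change 0.15 ± 0.06, SE, adjusted p = 0.152). By the brightest probe, Srebf1 was the only one of the 5 without overlap. Scap, the escort that carries SREBP to the Golgi, read 19237 and 18356 in SerpinB2-/- cells, against 18406 and 20174 in wild type (log2 change -0.04 ± 0.07, SE, adjusted p = 0.756).

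Insig1, itself an SREBP target that retains Scap, read 238 and 270 in SerpinB2-/- cells, against 339 and 270 in wild type, and wild type replicate 1 was the sample that stood above the rest. Its log2 change was -0.25 ± 0.13 (SE, adjusted p = 0.246, 95% interval -0.59 to 0.09). Insig2, the second retention protein, read 6240 and 5752 in SerpinB2-/- cells, against 6146 and 6563 in wild type (log2 change -0.08 ± 0.07, SE, adjusted p = 0.463). Another Insig2 probe, 1048 bases away, read 1495 and 1452 in SerpinB2-/- cells, against 2012 and 1714 in wild type. It gave -0.33 ± 0.09 (SE) without passing (adjusted p = 0.0737), so the 2 Insig2 probes differed in size. Insig2 and Hsd17b7 lie on the chromosome of Serpinb2, 13.8 Mb and 62.5 Mb from the Serpinb2 probe, and a part of flanking sequence in their values was not tested. Stard4, a soluble carrier of sterols between membranes, read 2071 and 2217 in SerpinB2-/- cells, against 2102 and 1963 in wild type (log2 change 0.08 ± 0.07, SE, adjusted p = 0.484).

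Genes of fatty acid synthesis and desaturation, mainly under SREBP-1, all lay slightly above 0 and none of the 6 passed. Their median log2 change was 0.12, against 0.01 over all genes, and it ran from 0.07 for Fasn to 0.15 for Scd2. Fasn, the fatty acid synthase, read 719 and 718 in SerpinB2-/- cells, against 672 and 693 in wild type (log2 change 0.07 ± 0.06, SE, adjusted p = 0.404, 95% interval -0.07 to 0.22). Scd1, the stearoyl-CoA desaturase, read 2012 and 2044 in SerpinB2-/- cells, against 1851 and 1850 in wild type (log2 change 0.13 ± 0.05, SE, adjusted p = 0.169, 95% interval -0.01 to 0.27). Acly, which makes cytosolic acetyl-CoA from citrate, gave 0.13, Acaca, the acetyl-CoA carboxylase, 0.11, and Elovl6, an elongase, 0.09. In 5 of the 6 genes both SerpinB2-/- samples were above both wild type samples, against 32.5% of all genes. Scd2, a second desaturase, was the exception, at 29273 and 35409 in SerpinB2-/- cells, against 30446 and 27759 in wild type.

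Probes disagreed on 2 of these genes. The second Acly probe, which is dim, gave -0.29, and 2 of the 3 further Acaca probes gave -0.44 and -0.11, while the bright one, shifted by 1 base from the probe used, gave 0.12. When the probes of a gene were averaged, Acly and Acaca turned to -0.08 each. Over all 30 genes, 11 had 14 further probes, of which 9 had the sign of the brightest probe and 5 the opposite sign. For Tm7sf2 and Fdft1, the called genes with more than 1 probe, the further probe had the sign of the brightest one.

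**Figure D3:**
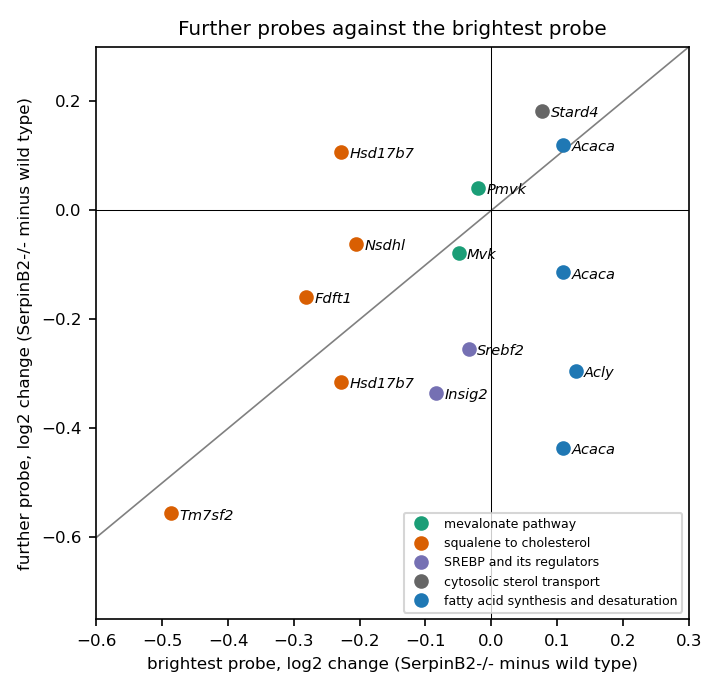
Log2 change of each further probe (vertical axis) against that of the brightest probe of the same gene (horizontal axis), both as SerpinB2-/- minus wild type, for the 14 further probes of 11 genes, with the line of equal values in grey. The Tm7sf2 probes lie near the line at -0.49 and -0.56, and Acly and 2 Acaca probes lie below 0 although their brightest probes lie above it.

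How much the genotypes differed can be set beside how much 2 samples of 1 genotype differed. In the fatty acid genes the median size of the genotype difference was 0.12 on the log2 scale, against 0.03 between the 2 SerpinB2-/- samples and 0.03 between the 2 wild type samples. In the 18 sterol enzymes it was 0.08, against 0.11 between the SerpinB2-/- samples and 0.11 between the wild type samples. The sterol enzymes moved together between samples of the same genotype. SerpinB2-/- replicate 2 was above replicate 1 in 16 of the 18, with a median log2 difference of 0.11, and wild type replicate 2 was below replicate 1 in 18 of the 18, with a median of -0.11. Both held at once in 88.9% of the sterol enzymes, and in 35.5% of all genes. Among the 5931 genes with a mean scaled signal above 5000, both held in 47.3%, with medians of 0.02 and -0.03. After quantile normalization, which gives every array the same distribution, both still held in 16 of the 18 sterol enzymes, with medians of 0.10 and -0.10. These figures describe 4 samples, and the replicate numbers are names that carry no order. They were found after the data were seen, and what sets SerpinB2-/- replicate 2 and wild type replicate 1 above their partners was not tested. Before scaling, the 75th percentile of signal was 1908 on SerpinB2-/- replicate 2 and 1902 on wild type replicate 1. It was 2143 and 2068 on their partners, and a part of the scaling in these differences was not tested. Genes of fibroblasts and pericytes differed the same way between replicates, with list medians of 0.20 for the SerpinB2-/- pair and -0.20 for the wild type pair.

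**Figure D4:**
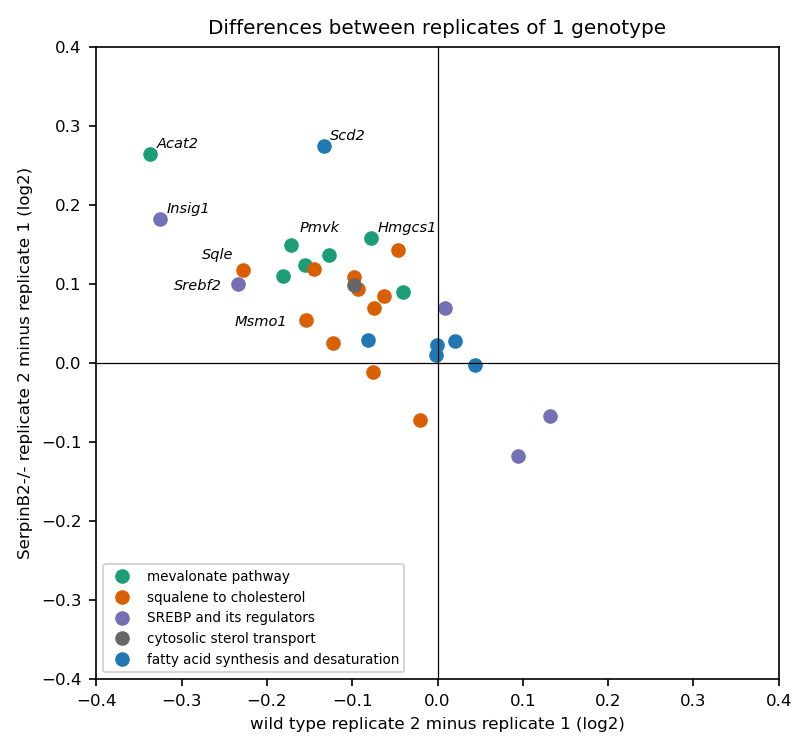
Log2 difference between replicate 2 and replicate 1 of SerpinB2-/- (vertical axis) and of wild type (horizontal axis) for the 30 genes, coloured by role, with some of the outlying genes named. Of the 18 sterol enzymes 16 lie in the upper left part, and the fatty acid genes other than Scd2 lie close to 0.

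The scaling of the arrays shifted the 30 genes along with all others. With each array scaled by its median in place of its 75th percentile, the median of all genes moved to 0.14 and 30.4% of all genes were called, 77.7% of them higher, against 38.3% of the calls higher with the 75th percentile. The 30 genes then had a median of 0.11, which is -0.03 relative to all genes. This offset equals that with the 75th percentile by construction, since either scaling shifts every gene of an array by the same amount. Under that scaling the sterol enzymes had a median of 0.09, Cyp51, Srebf1, Acly, Acaca, Scd1 and Elovl6 passed as higher, and Tm7sf2 alone passed as lower. Tm7sf2 passed as lower under all 6 scalings and sources plotted, while Lss and Fdft1 did not. The fatty acid genes had a median above 0 under each of them, between 0.08 and 0.25.

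**Figure D5:**
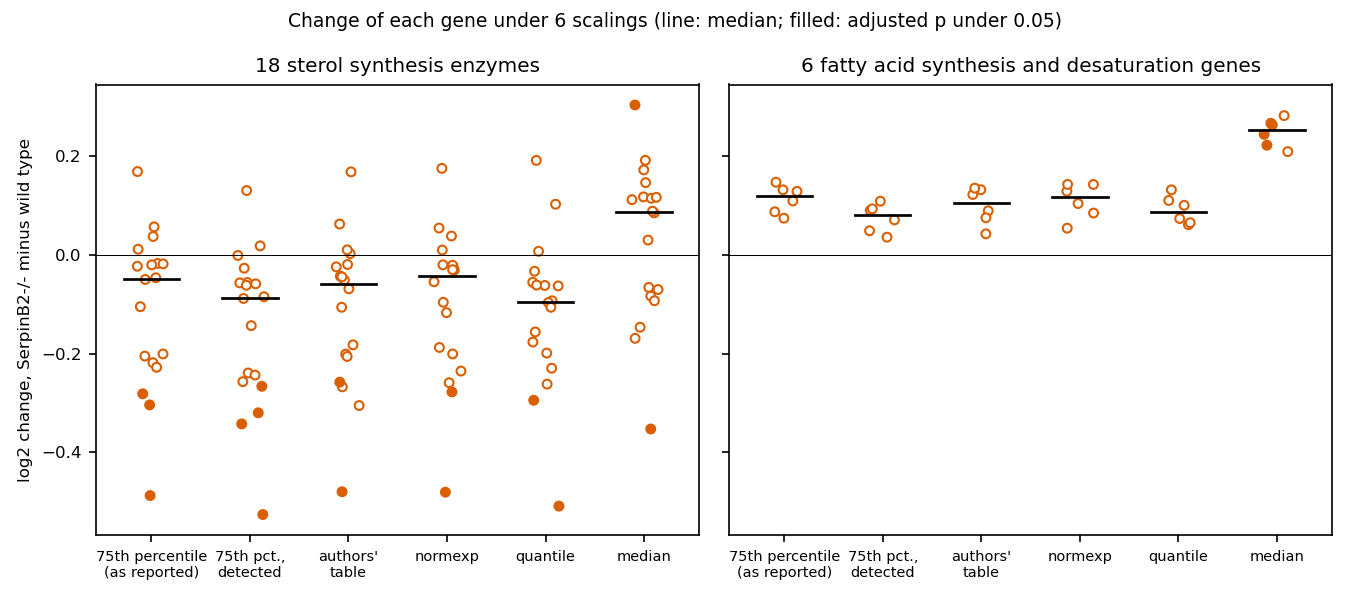
Log2 change (SerpinB2-/- minus wild type, vertical axis) of the 18 sterol enzymes (left) and the 6 fatty acid genes (right) under 6 scalings or sources of the values, with medians as lines and filled points for adjusted p below 0.05. The lowest point of the left panel, Tm7sf2, is filled under each, and with median scaling both panels shift upwards together and 4 fatty acid genes are filled.

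Promoter sequence was available in RefSeq windows for 24 of the 30 genes, in 32 windows running from 250 bases before to 50 bases after a gene start (GRCm38.p6). The windows were searched on both strands for TCACNCCAC, the core of a sterol regulatory element where SREBP binds, and for the sites of its usual partners, CCAAT for NF-Y and GGGCGG for Sp1, as well as for CACGTG, an E-box. The sterol element core was found in 1 of the 24 genes (4.17%), Hmgcs1, against 1.38% of the tested genes with a window. It stood in 1.24% of all 32851 windows. CCAAT was found in 20 of the 24 genes (83.3%), against 42.4% of the tested genes with a window. GGGCGG was also found in 20 of the 24 (83.3%), against 63.5%, and CACGTG in 5 of the 24 (20.8%), against 10.98%. CCAAT and GGGCGG stood in the same window in 17 of the 24 genes (70.8%), against 24.7% of the tested genes with a window. Windows of the 30 genes were richer in G and C (median 61.8%) than all windows (52.7%), and no comparison at matched base composition was made. A match is only a run of letters, and the absence of the core from a window says nothing about SREBP.

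The windows printed are those of Tm7sf2 and Lss, which fell and are among the enzymes that moved together, and of Hmgcs1, which did not pass and is the only one with the sterol element core. They are credited to RefSeq, at chr19:6067801-6068100 on the minus strand for Tm7sf2, chr10:76531355-76531654 on the plus strand for Lss and chr13:119690101-119690400 on the plus strand for Hmgcs1 (GRCm38.p6). Capitals mark CCAAT and GGGCGG or their reverse complements, ATTGG and CCGCCC, and the sterol element core in Hmgcs1. Tm7sf2 and Lss each have 1 CCAAT and 2 GGGCGG matches, and Hmgcs1 has 4 and 3 besides 1 core. No Fdft1 window is given.
Tm7sf2: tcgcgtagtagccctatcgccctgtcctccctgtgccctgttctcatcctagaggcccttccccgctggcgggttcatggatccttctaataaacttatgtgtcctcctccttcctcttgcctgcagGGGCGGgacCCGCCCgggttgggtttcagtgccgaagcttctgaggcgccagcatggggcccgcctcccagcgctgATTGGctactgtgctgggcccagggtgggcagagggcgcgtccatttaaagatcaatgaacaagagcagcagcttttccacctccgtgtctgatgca
Lss: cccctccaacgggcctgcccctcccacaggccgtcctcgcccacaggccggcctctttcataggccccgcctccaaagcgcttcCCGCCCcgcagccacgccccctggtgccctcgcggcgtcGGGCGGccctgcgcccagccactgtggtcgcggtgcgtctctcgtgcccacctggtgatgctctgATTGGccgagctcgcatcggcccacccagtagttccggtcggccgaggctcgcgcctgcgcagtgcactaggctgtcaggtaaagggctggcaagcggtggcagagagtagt
Hmgcs1: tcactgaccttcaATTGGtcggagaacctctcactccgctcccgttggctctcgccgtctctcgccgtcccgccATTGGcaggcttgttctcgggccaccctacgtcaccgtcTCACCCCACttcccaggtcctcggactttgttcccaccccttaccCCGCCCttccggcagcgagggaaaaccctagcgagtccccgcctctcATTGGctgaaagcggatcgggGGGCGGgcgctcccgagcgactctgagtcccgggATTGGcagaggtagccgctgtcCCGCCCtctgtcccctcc

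In a list of other SREBP target and lipogenic genes, 20 were measured. Of these 3 fell (15%, against 9.67% of all genes lower) and 0 rose, with a median log2 change of -0.04. Lpin1, a phosphatidate phosphatase and SREBP target, read 157 and 173 in SerpinB2-/- cells, against 237 and 238 in wild type (log2 change -0.53 ± 0.07, SE, adjusted p = 0.0159). Aldoc, an aldolase, read 852 and 891 in SerpinB2-/- cells, against 1169 and 1064 in wild type (log2 change -0.36, adjusted p = 0.0393). Stard5, a sterol-binding carrier, read 296 and 306 in SerpinB2-/- cells, against 375 and 371 in wild type (log2 change -0.31, adjusted p = 0.0308). Its place in the list does not show that SREBP drives it. The 3 genes were lower in both SerpinB2-/- samples. Of 17 regulators of lipogenesis 1 fell (5.88%, against 9.67% of all genes), Lpin2, a relative of Lpin1, at 392 and 350 in SerpinB2-/- cells, against 489 and 469 in wild type (log2 change -0.37, adjusted p = 0.0410).

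None of the 15 genes of SREBP cleavage, endoplasmic reticulum retention and sterol-regulated degradation passed with limma, and 3 had an unadjusted p below 0.05. Their median log2 change was 0.10. In the branches that lead from farnesyl diphosphate to other isoprenoids, 2 of 14 genes rose (14.3%, against 6.01% of all genes higher) and 0 fell. Pdss1, which builds the side chain of coenzyme Q, read 1932 and 1764 in SerpinB2-/- cells, against 1252 and 1329 in wild type (log2 change 0.52 ± 0.07, SE, adjusted p = 0.0184). Dhdds, a subunit of the enzyme that makes dolichol chains, read 2343 and 2289 in SerpinB2-/- cells, against 1882 and 1961 in wild type (log2 change 0.27, adjusted p = 0.0445). Both were above wild type in both samples.

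Among 18 genes of sterol efflux, oxysterols and esterification, 1 rose and 2 fell, and these 3 calls are 16.7% of the list, against 15.7% of all genes called. Soat1, which esterifies cholesterol for storage, read 669 and 652 in SerpinB2-/- cells, against 479 and 416 in wild type (log2 change 0.57 ± 0.09, SE, adjusted p = 0.0205). Npc1, the lysosomal cholesterol exporter, read 514 and 494 in SerpinB2-/- cells, against 634 and 722 in wild type (log2 change -0.43 ± 0.08, SE, adjusted p = 0.0361). Abcg4, a sterol transporter, read 470 and 479 in SerpinB2-/- cells, against 559 and 574 in wild type (log2 change -0.25, adjusted p = 0.0467). No sample of one genotype reached the other in these 3 genes. Soat1 lies on the chromosome of Serpinb2, and a part of flanking sequence in its values was not tested. Of the 9 calls named in these lists, 5 passed in none of the fits that leave out 1 array (Aldoc, Stard5, Dhdds, Npc1 and Abcg4, with adjusted p between 0.0550 and 0.180), and Lpin1, Lpin2, Pdss1 and Soat1 passed in 1 or 2 of the 4. Their adjusted p there ran from 0.0266 to 0.0698 for Lpin1, 0.0484 to 0.149 for Lpin2, 0.0315 to 0.0795 for Pdss1 and 0.0395 to 0.0643 for Soat1. With the mean of its probes Abcg4 gave -0.02.

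Markers of cell types and of dividing cells moved with genotype in the same arrays. The counts of calls stand beside 6.01% of all genes called higher and 9.67% called lower. Of 20 proximal tubule markers 13 were measured, of which 2 rose (15.4%) and 1 fell (7.69%), with a median log2 change of -0.01. Their summed scaled signal was 7198 to 7536 in SerpinB2-/- cells and 7168 to 7423 in wild type. A sum follows the brightest probes of its list, so it does not measure the amount of a cell type. Lrp2 alone read 3765 to 4007 across the samples, and Tagln, of the fibroblast and pericyte markers, 222756 to 301959, neither of them called. Lrp2, Cubn, Slc34a1, Aqp1 and Hnf4a were measured, while Slc5a2, Slc5a12, Slc22a8, Slc7a9, Slc13a3, Fbp1 and Pck1 were not above background. Cell cycle genes rose in 19 of 20, with sums of 225202 to 233243 in SerpinB2-/- cells, against 159264 to 160345 in wild type. Leukocyte markers fell in 12 of 19 measured (sums of 25861 to 27612 in SerpinB2-/- cells, against 33255 to 35930 in wild type). Endothelial markers fell in 11 of 14 and rose in 1, or fell in 10 and rose in 1 of the 12 without Tie1 and Sox18, which passed the filter through wild type only (12615 to 15149 in SerpinB2-/- cells, against 18172 to 18625 in wild type). Urothelial and squamous markers fell in 7 of 11 (51394 to 52448 in SerpinB2-/- cells, against 84937 to 87228 in wild type). Distal tubule and collecting duct markers fell in 4 of 8 measured of 18, or in 3 of the 6 without Cldn19 and Aqp3, which passed the filter through wild type only (1083 to 1183 in SerpinB2-/- cells, against 1910 to 1983 in wild type). Fibroblast and pericyte markers rose in 4 of 14 (28.6%) and fell in 1 (7.14%), and Dcn among the others passed through wild type only. Their sums were 773061 to 850294 in SerpinB2-/- cells, against 656465 to 767665 in wild type. Of 6 adipocyte markers 2 were measured, of which Fabp4, a fatty acid carrier, fell (log2 change -1.26, adjusted p = 0.0392), and Adipoq, Plin1, Lep and Cidec were not above background. The part of these in the sterol and lipogenic values was not tested, and fewer cells of a type and less RNA per cell cannot be told apart in such bulk samples.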

How the data were processed

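Total RNA (150 ng per sample) was labelled with Cy3 and hybridised to one-colour Agilent arrays, per the labels. Per the file headers and the submitters' processing notes, Agilent Feature Extraction 10.7.3.1 made the deposited intensity values, with background subtracted and spatial and multiplicative trends removed. The authors' own deposited table holds processed signal on a linear scale, each column having its 75th percentile at 1500 and no value below 4, medians of 68 and 71 for SerpinB2-/- and 76 and 77 for wild type, and a ratio to the scanner intensity of 0.698 to 0.787. No header or label says how it was made. It served as an alternative. File positions are in mm9, and exon annotation was not used here.

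From the scanner files, the 17263 control spots and spots marked as outliers were left out. The log2 intensities of the remaining spots of each of 39429 probes (4 spots each) were averaged, and the 75th percentile of each array was subtracted. A probe passed where over 50% of its spots exceeded background well, by the scanner software's mark, on both arrays of at least 1 genotype, and the brightest one stood for its gene. Symbols were updated through a RefSeq table of GRCm38.p6 (28328 probes matched by accession). The 18392 genes were fitted with limma 3.58.1 in R 4.3.3 (lmFit and eBayes, genotype only) and p-values adjusted by Benjamini-Hochberg, called below 0.05. A further fit held every probe by itself. The procedure was tested on simulated data. An exact permutation test of 2 against 2 samples cannot give a two-sided p below 0.333, so none is used. Precision is limited by the number of arrays.

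The 30 genes and the other gene lists were chosen with earlier results of these data known. Values are given for the called genes, the SREBP genes and the best known enzymes, and in each other pathway list for up to 4 called genes with the largest change. Marker lists are given by their counts and sums. Alternatives covered the background correction, scaling, filter on dim probes, choice of probes and spots, moderation, array weights, the replicate number as a block and each array left out. The titles number the samples 1 and 2 in each genotype, and the labels do not say what a number stands for.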

Additional observations from a re-analysis of the deposited data

How the results depend on the processing

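Under 17 alternatives, leaving aside an unmoderated test, Tm7sf2 passed as lower in 13 (log2 change -0.56 to -0.35), Fdft1 in 8 (-0.32 to -0.15) and Lss in 7 (-0.36 to -0.17), and Lbr as higher in 12 (0.40 to 0.58). The causes of the differences between settings were not tested, unless the setting itself gives fewer samples or more genes. The calls over all genes came to 5583 with median scaling, 3 of 29875 with no filter on dim probes, 0 with an unmoderated test (which gave 0 of the 30 genes lower, and an unadjusted p below 0.05 for 4442 genes, 8 of the 30 among them), and 753 to 1579 without 1 array, where the lone sample of a genotype is assumed to vary like the others. Members higher came to 1 with quantile normalization (Srebf1) and 6 with median scaling. Members lower came to 1 with median scaling (Tm7sf2), 0 with no filter on dim probes (5 with an unadjusted limma p below 0.05), and 0 to 1 without 1 array. The members' median was 0.11 with median scaling and -0.0873 to 0.0416 without 1 array. With the replicate number as a block, members lower came to 1 (Tm7sf2). Same-numbered samples deviated together with a correlation of 0.262 over genes, but with 2 numbers of unstated meaning they share only a number. Values that changed sign, none of them called, were with median scaling Hmgcs1 0.117, Mvk 0.0851, Pmvk 0.115, Idi1 0.117, Fdps 0.0300, Msmo1 0.0886, Sc5d 0.112, Srebf2 0.100, Scap 0.0986 and Insig2 0.0506. With outlier spots kept they were Acat2 0.0409 and Pmvk 0.000287, and with the authors' table Hmgcs1 0.00267 and Dhcr7 -0.0242. With averaged probes they were Pmvk 0.0109, Acly -0.0826 and Acaca -0.0800, and with quantile normalization Sqle -0.0331. With the 75th percentile of detected probes they were Sqle -0.0270 and Dhcr7 -0.00113, and with normexp Srebf2 0.00239. Without 1 array, values ran from -0.0966 to 0.0619 for Hmgcs1, -0.128 to 0.0281 for Mvk, -0.106 to 0.0659 for Pmvk, -0.109 to 0.0725 for Idi1, -0.102 to 0.125 for Sqle, -0.123 to 0.0311 for Msmo1, -0.0772 to 0.0313 for Sc5d, -0.0350 to 0.110 for Dhcr7, -0.151 to 0.0827 for Srebf2 and -0.102 to 0.0299 for Scap. With 2 samples per genotype, a p that misses the threshold does not show equal levels.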
